A study of Homo sapiens with 7 samples.

Results

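The beta-2 integrin genes of RH30 cells are described here, with ITGAM and its chromosomal neighbors at the center. The 5 genes, ITGAM, ITGAX, ITGAD, ITGAL and ITGB2, were taken by name from the 57189 genes of the count table. ITGAM was selected on its difference between BV6-treated and untreated cells, so the values of the 5 genes in this comparison are given as a description, without a test. The question was whether ITGAM was higher alone or together with its neighbors and its partner subunit.

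RH30 is an established line of alveolar rhabdomyosarcoma (RMS), a childhood tumor with features of skeletal muscle, and the labels give its genotype as wt. The study's methods describe its RH30 cells as carrying GFP and luciferase reporters, which the labels do not mention. BV6 is a Smac mimetic, a small molecule that binds inhibitor of apoptosis proteins. RNAseq counts were analyzed for 4 untreated samples (replicates 1 to 4) and 3 samples of cells that received BV6 at 5 µM over 24 h (replicates 2 to 4), and the labels name no vehicle for the untreated cells. The summed counts of a sample ranged from 54070030 to 77220882. The study speaks of biological replicates, the labels do not say how their cultures were kept apart, and p-values measure only the spread between these samples.

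Integrins are adhesion receptors made of an alpha and a beta chain, and neither chain reaches the cell surface well without the other. The beta-2 family is known from leukocytes, where it serves firm adhesion to the vessel wall, uptake of complement-coated particles and contact between immune cells and their targets. ITGB2 encodes the shared beta chain, CD18. ITGAM (CD11b), ITGAX (CD11c), ITGAD (CD11d) and ITGAL (CD11a) encode the alpha chains that compete for it, and the pair of ITGAL and ITGB2 is the receptor LFA-1.

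In the annotation of GRCh38 (GENCODE release 44), ITGAM lies on the plus strand of chromosome 16 from 31259967 to 31332892. ITGAX follows on the same strand from 31355134 to 31382999 after a gap of 22.2 kb, and ITGAD from 31393335 to 31426505 after a gap of 10.3 kb. ITGAL lies on the same strand of chromosome 16, from 30472658 to 30523567, and ends 736 kb before ITGAM starts. ITGB2 is on the minus strand of chromosome 21, from 44885953 to 44931989.

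The alpha chain genes of the cluster are related in sequence, and a read that matches more than 1 of them cannot be assigned by its own sequence. Its mate may still place the pair, which the shares of single 50-base stretches given here leave out. Of 5767 distinct 50-base stretches in the annotated ITGAM transcripts, 50 bases being the length of each read of a pair, 21 (0.364%) also occurred in another gene, all of them in ITGAX. They come from a run of 70 identical bases that lies inside 1 exon of each gene. The run is shown with the bases around it because it is where counts of ITGAM and ITGAX could be exchanged (GRCh38, plus strand, capitals mark the identical run; chr16:31297548-31297647 in ITGAM and chr16:31362969-31363068 in ITGAX):
ITGAM: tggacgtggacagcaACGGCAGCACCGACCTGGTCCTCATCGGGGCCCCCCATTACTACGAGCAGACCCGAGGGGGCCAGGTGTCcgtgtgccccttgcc
ITGAX: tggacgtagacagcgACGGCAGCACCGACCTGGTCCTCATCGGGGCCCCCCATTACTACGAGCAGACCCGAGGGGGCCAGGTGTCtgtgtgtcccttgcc
If the counts of ITGAM were spread evenly over its 50-base stretches, 3.14, 2.09 and 2.06 of them would fall in these shared stretches in BV6 replicates 2, 3 and 4. ITGAX itself had 137, 209 and 403 counts in those samples. ITGAX shared 137 of 7383 stretches (1.86%) with other genes, 67 of them with ITGAD.

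ITGAM had 37, 40, 34 and 23 counts in untreated replicates 1, 2, 3 and 4, and 861, 575 and 565 counts in BV6 replicates 2, 3 and 4. Every BV6 sample lay far above every untreated sample, and the highest of them was BV6 replicate 2. On the scale of counts per 1000000 of the normalized library (CPM), the level was 0.532 ± 0.144 in the untreated group (SD, n = 4) and 11.7 ± 3.17 in the BV6 group (SD, n = 3). The untreated counts were low but above the floor of 3 counts, which corresponds to 0.0389 to 0.0557 CPM and covers counting error only. The log2 fold change from the edgeR fit was 4.46 (standard error 0.266).

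ITGAX, the next gene downstream, had 94, 22, 81 and 102 counts in untreated replicates 1 to 4 and 137, 209 and 403 counts in BV6 replicates 2 to 4. The groups did not overlap, although the lowest BV6 sample was close to the highest untreated one. Its level was 1.15 ± 0.537 CPM without BV6 (SD, n = 4) and 4.44 ± 2.68 CPM with it (SD, n = 3). This corresponds to a log2 fold change of 1.94 (standard error 0.477), and 1.34 without BV6 replicate 4, the sample with the most ITGAX counts. ITGAM was therefore not the only gene of the 5 whose counts were higher in every BV6 sample, but its fold change was the larger one.

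ITGAD, the last gene of the cluster, had 12, 6, 14 and 26 counts in untreated and 8, 7 and 22 counts in BV6-treated samples. The groups overlapped over their whole range, and replicate 4 was the highest in each group. The log2 fold change was -0.06 with a standard error of 0.599. It was -0.83 without BV6 replicate 4 and 0.27 without BV6 replicate 3. A moderate difference in either direction was therefore not detectable with these samples. Whether depth or the spread between replicates set this limit was not tested.

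ITGAL had 24, 19, 22 and 12 counts in untreated and 43, 18 and 24 counts in BV6-treated samples. The groups overlapped through BV6 replicate 3, while BV6 replicates 2 and 4 lay above all untreated samples once library size was taken into account. Its log2 fold change was 0.72 (standard error 0.399), and 0.29 without BV6 replicate 2.

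ITGB2, the partner of all 4 alpha chains, was the most abundant of the 5 mRNAs in untreated cells. It had 3389, 1812, 2066 and 2265 counts in untreated and 1251, 1064 and 1909 counts in BV6-treated samples. The levels of 36.8 ± 5.12 CPM (SD, n = 4) and 25 ± 9.36 CPM (SD, n = 3) overlapped, since BV6 replicate 4 lay among the untreated samples, and the other BV6 samples lay below them. The log2 fold change was -0.56 (standard error 0.228), and it was -0.90 without BV6 replicate 4 and -0.35 without BV6 replicate 3. ITGB2-AS1, on the opposite strand, shares 303 exonic bases (4.15% of the ITGB2 exons) with it, and how the counting used strand is not given in the sources used here. The low counts of ITGAL and ITGAD are uncertain in the same way, since 5.62% of the 50-base stretches of ITGAL and 4.34% of those of ITGAD also occurred in other genes. ITGAL shares 415 exonic bases (4.21%) and another 204 (2.07%) with genes on the opposite strand, and ITGAD shares 146 (3.33%) with a gene on its own strand. ITGB2-AS1 had 76 to 199 counts in untreated and 85 to 188 counts in BV6-treated samples, and the groups overlapped.

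**Figure D1:**
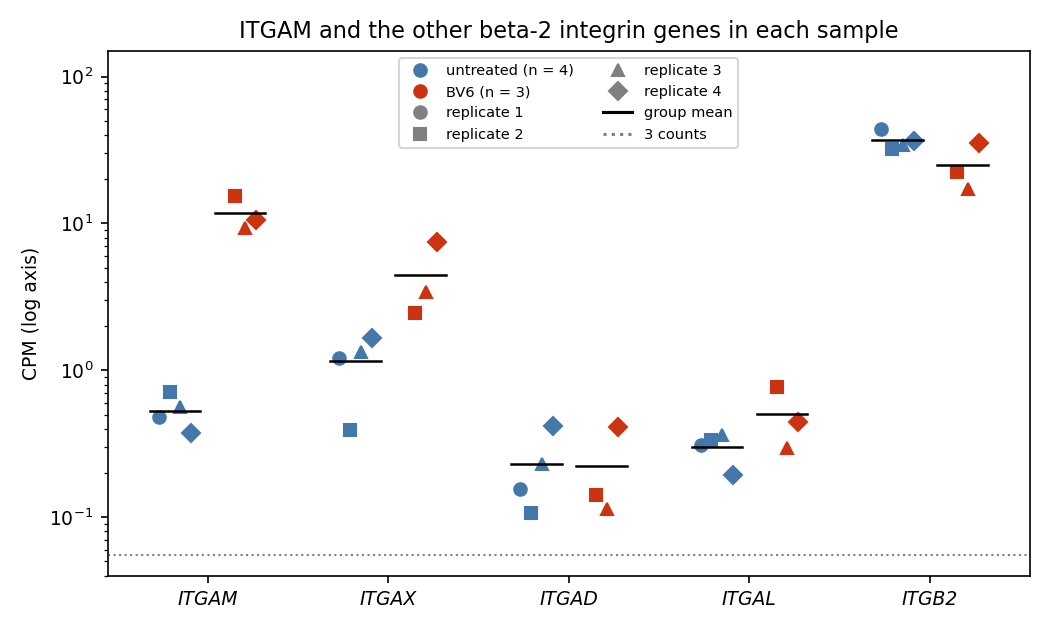
CPM of the 5 genes on a log axis, with 1 symbol per sample, the shape giving the replicate number and a black line the group mean. ITGAM and ITGAX are the genes in which the BV6 samples lie above all untreated samples, and the dotted line marks 3 counts in the smallest library.

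All 5 genes passed the filter on low counts. By an adjusted p below 0.05, 1 of the 5, ITGAM, was called higher with BV6, where 0.394% of the 23124 tested genes were called higher, and 0 of the 5 were called lower, where 0.0562% of the tested genes were. With DESeq2, 2 of the 5, ITGAM and ITGAX, were called higher, where 1.15% of the tested genes were, and the same 2 were called higher by edgeR with no filter on low counts, where 0.389% of 43421 genes were. The groups did not overlap, with BV6 higher, for 2 of the 5, where this held for 4.94% of the tested genes. Since ITGAM was selected on this comparison, nothing is read from these counts.

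Levels of different genes were compared as CPM per kb of exon, with the exons of all annotated isoforms joined (5.69 kb for ITGAM, 7.30 kb for ITGB2). Which isoforms the cells made was not measured, and shorter ones would change the levels and ratios between genes. The same lengths were used in every sample. In untreated cells the order was ITGB2 (5.04 ± 0.701), ITGAX (0.163 ± 0.076), ITGAM (0.0936 ± 0.0253), ITGAD (0.0522 ± 0.0314) and ITGAL (0.0306 ± 0.00764; all SD, n = 4). Only ITGB2 stood clear of the gene after it, and the ranges of ITGAX, ITGAM and ITGAD and those of ITGAD and ITGAL overlapped. In BV6-treated cells the order was ITGB2 (3.43 ± 1.28), ITGAM (2.06 ± 0.557), ITGAX (0.628 ± 0.378), ITGAL (0.0509 ± 0.0244) and ITGAD (0.0505 ± 0.037; all SD, n = 3). There ITGB2 and ITGAM overlapped in their ranges, ITGAM and ITGAX did not, ITGAX lay above ITGAL, and ITGAL and ITGAD were at the same level.

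The ratio of alpha to beta chain mRNA within each sample shows the same shift without any scaling between samples. Per 100 of ITGB2, on the scale per kb, ITGAM was at 1.4, 2.83, 2.11 and 1.3 in untreated replicates 1 to 4 and at 88.3, 69.4 and 38 in BV6 replicates 2 to 4. ITGAX was at 2.86, 1.25, 4.04 and 4.65 in the untreated samples and at 11.3, 20.3 and 21.8 in the BV6 samples. The 4 alpha chains together came to 6.78 ± 1.6 per 100 of ITGB2 (SD, n = 4) without BV6, so that beta chain mRNA was in large excess. With BV6 they came to 85.9 ± 21 (SD, n = 3), and in BV6 replicate 2 they reached 103. How near these values are to equality with ITGB2 depends on the exon lengths used.

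ITGAM made up 15.8% to 52.3% of the alpha chain mRNA of the family in untreated and 60.7% to 85.6% in BV6-treated samples. ITGAX led in untreated replicates 1, 3 and 4, and ITGAM led in untreated replicate 2. The ratio of ITGAM to ITGAX was 0.49, 2.26, 0.522 and 0.281 in the untreated samples and 7.82, 3.42 and 1.74 in the BV6 samples. This ratio overlapped between the groups, as BV6 replicate 4, with the most ITGAX, lay below untreated replicate 2, with the least. Between samples of the same number it was higher with BV6 in 3 of 3, but the numbers were not taken to pair the samples. In each group replicate 2 had the least ITGAX and replicate 4 the most.

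**Figure D2:**
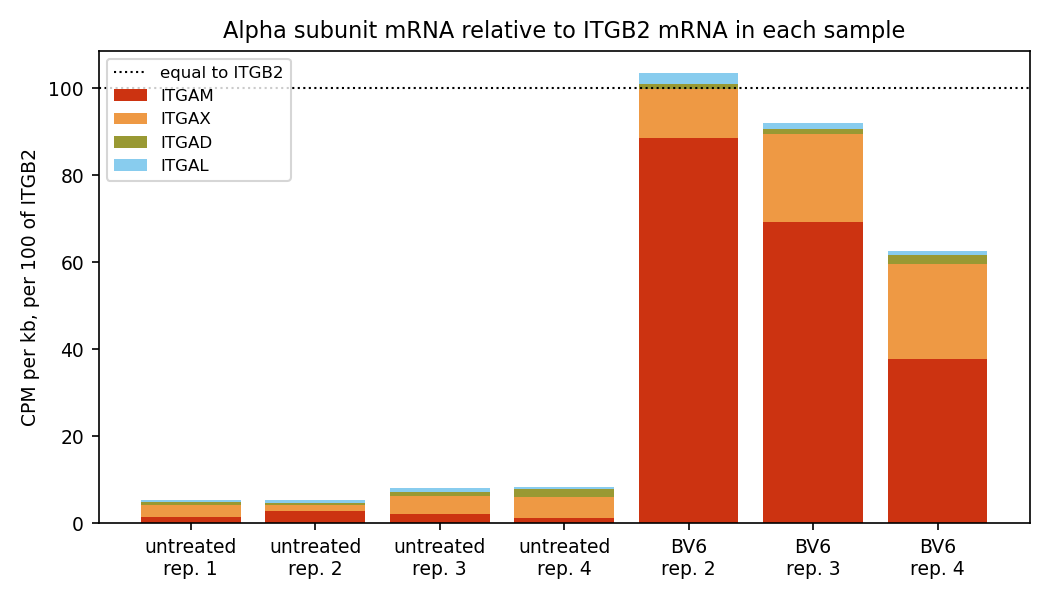
Stacked bars give the CPM per kb of the 4 alpha chain genes per 100 of ITGB2 in each of the 7 samples. The dotted line marks equality with ITGB2 at the exon lengths used. The untreated bars reach between 5.38 and 8.25, the BV6 bars between 62.6 and 103, and most of each BV6 bar is ITGAM.

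The other integrin subunits were not part of the selection and were tested in the fit over all 23124 genes. Of 21 other subunits, 20 passed the filter, and the quasi-likelihood test of edgeR, adjusted by Benjamini-Hochberg, called 0 of them. At an unadjusted p below 0.05 there were 2 higher and 3 lower, and DESeq2 called 2 higher and 1 lower. Over all tested genes, which are the background of the later lists too, 4.13% were higher and 4.26% lower at an unadjusted p below 0.05, and DESeq2 called 1.15% higher and 0.783% lower. With 6 subunits higher and 14 lower, where 47.7% of all tested genes were higher, their median log2 fold change was -0.09, beside -0.01 for all tested genes. It was -0.24 without BV6 replicate 4 and 0.02 without BV6 replicate 2.

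ITGB1, the common partner chain of most tissues, was the most abundant subunit and had 799 ± 101 CPM in untreated (SD, n = 4) and 749 ± 92.6 CPM in treated cells (SD, n = 3). ITGA6 and ITGA7, which form laminin receptors with it, led the alpha chains at 32.8 and 18.8 CPM per kb in untreated cells. ITGAV, the alpha chain of vitronectin receptors, had 173 ± 19.4 CPM in untreated and 248 ± 7.28 CPM in treated cells, higher in 3 of 3 BV6 samples. Its log2 fold change of 0.52 (standard error 0.109) was not called by edgeR (adjusted p = 0.113, Benjamini-Hochberg) and was called by DESeq2 (adjusted p = 0.00818). ITGA1 (log2 fold change 0.51), which was chosen after its values were seen, and ITGB8 (-0.62) were likewise called by DESeq2 only. ITGA9 had the largest fold change of the other alpha chains, with 84 to 261 counts in untreated and 42 to 88 counts in BV6-treated samples, a log2 fold change of -0.92 (-0.56 without untreated replicate 1) and overlapping groups (adjusted p = 0.547, edgeR with Benjamini-Hochberg adjustment). ITGB4, next to ITGB8 among the beta chains, had a log2 fold change of -0.58, which was -0.96 without BV6 replicate 2 and -0.20 without BV6 replicate 3, and overlapping groups.

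Among the 18 alpha chain genes of the table, ITGAM ranked 13 by mean CPM per kb in untreated and 7 in BV6-treated cells, between ITGA4 (2.73) and ITGAE (1.82). ITGAX ranked 12 and 11. ITGB2 ranked 4 of the 8 beta chain genes in both groups, after ITGB1, ITGB5 and ITGB6.

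**Figure D3:**
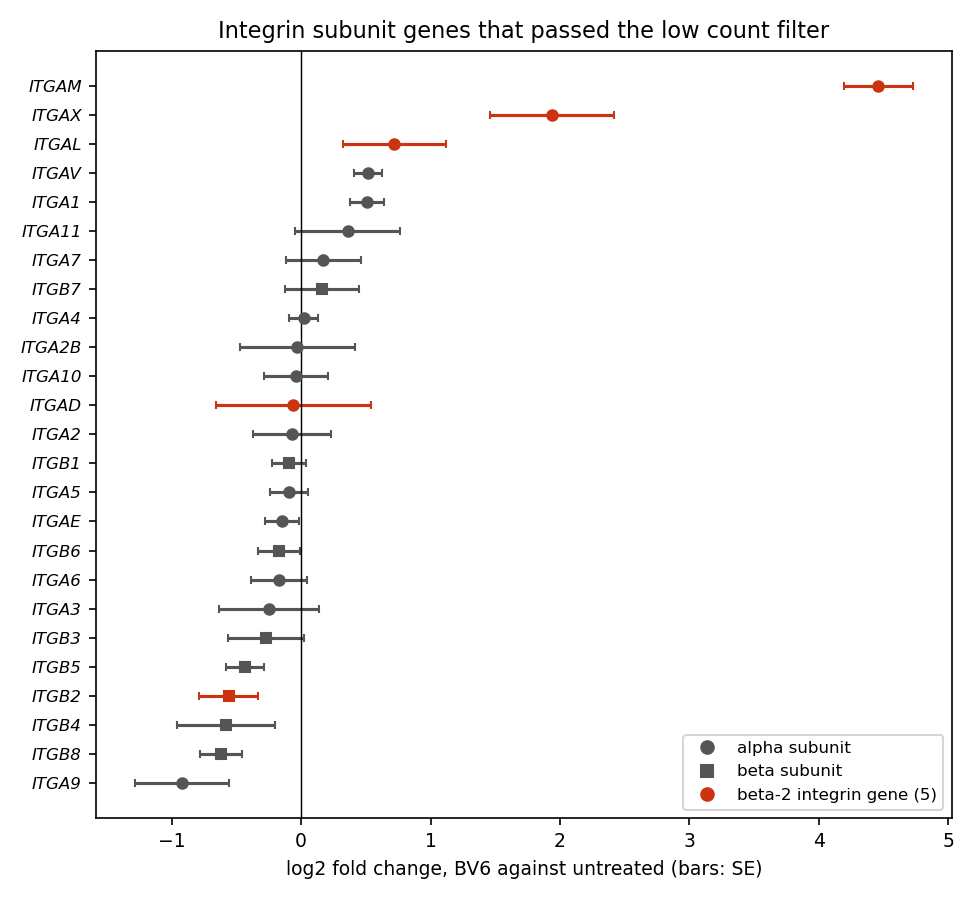
Log2 fold change with its standard error for the 25 integrin subunit genes that passed the filter, with circles for alpha and squares for beta chains and the 5 beta-2 integrin genes in red. ITGAM (4.46) and ITGAX (1.94) lie to the right of all others, and the other subunits outside the family lie between -0.92 and 0.52.

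The genes around the cluster show whether the difference extended along the chromosome. The annotation has 89 further genes within 500 kb of ITGAM. Of these, 48 were matched to the count table by name and 33 of them were tested, and the unmatched ones are not analysed here. By edgeR with Benjamini-Hochberg adjustment, 0 were called. At an unadjusted p below 0.05 there were 2 higher and 4 lower, and DESeq2 called 1, ZNF668, as lower (named after its values were seen). The log2 fold changes of the 33 lay between -1.13 and 0.32, with 8 higher, 25 lower and a median of -0.19, beside -0.01 for all tested genes. This median was -0.30 without BV6 replicate 4 and 0.01 without BV6 replicate 3.

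TRIM72, which encodes a muscle protein of membrane repair, ends 28.4 kb before the ITGAM start. It had 71.1, 66.9, 63.2 and 65.4 CPM in untreated replicates 1 to 4 and 97.9, 78.2 and 74.3 CPM in BV6 replicates 2 to 4. The groups did not overlap, and BV6 replicate 2 was the highest, as for ITGAM. The log2 fold change of 0.32 (standard error 0.119) was 0.20 without BV6 replicate 2, had an unadjusted p of 0.022 and was not called (adjusted p = 0.486, edgeR with Benjamini-Hochberg adjustment). PYDC1 and PYCARD, which encode a pyrin domain protein and the inflammasome adaptor ASC, are the next genes on that side and had 6 to 34 counts in every sample. PYCARD and its antisense partner PYCARD-AS1 overlap, so their counts cannot be told apart without strand. On the side of ITGAD, COX6A2, a muscle form of a respiratory chain subunit, begins after 1.23 kb and had 0 to 4 counts, and ZNF843 had 2 to 14 counts. Neither passed the filter. ARMC5, after 31.6 kb, had 10.9 ± 4.14 CPM without BV6 (SD, n = 4) and 7.87 ± 3.5 CPM with it (SD, n = 3), with overlapping groups.

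**Figure D4:**
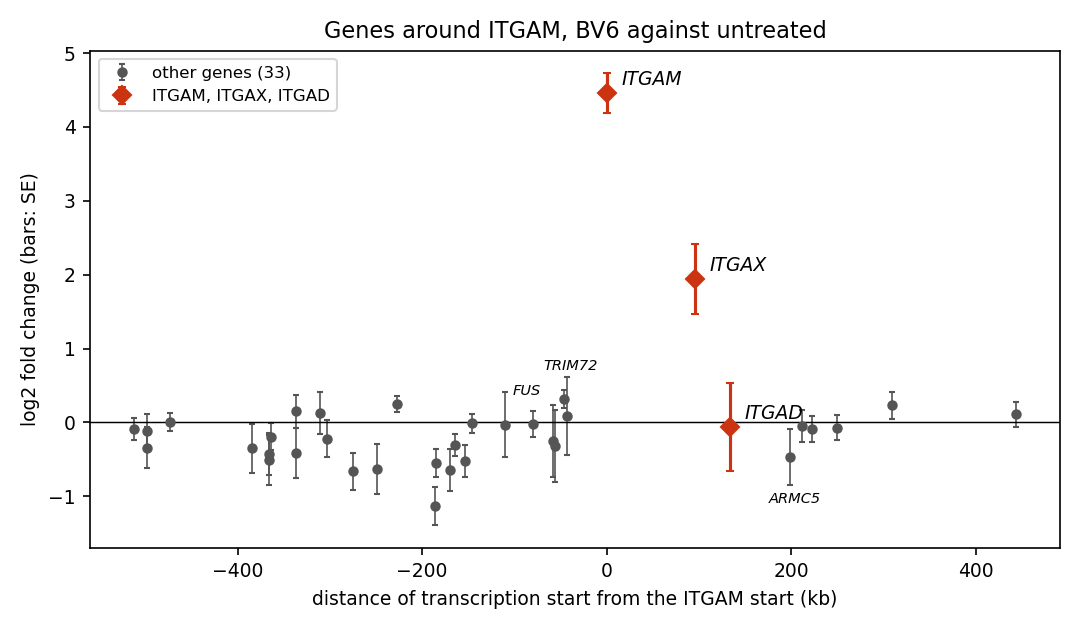
Log2 fold change with its standard error against the distance of each gene's start from the ITGAM start in kb, for ITGAM, ITGAX and ITGAD (red) and the 33 other tested genes of the region (grey). ITGAM and ITGAX stand above a band from -1.13 to 0.32 that holds the other genes, and ITGAD lies within it.

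The proximal promoter of ITGAM is shown because the gene differed most among the 5 and because factors that bind such sequences were measured in the same samples. Of the 5 genes, 1 had an entry in the RefSeq promoter table, and ITGAX, ITGAD, ITGAL and ITGB2 had none. The 300 bases run from 250 before to 50 after the start (GRCh38.p14, chr16:31259725-31260024, plus strand), and the capitals mark GAGGAA, the core bound by the ETS factor PU.1, on either strand:
ITGAM promoter: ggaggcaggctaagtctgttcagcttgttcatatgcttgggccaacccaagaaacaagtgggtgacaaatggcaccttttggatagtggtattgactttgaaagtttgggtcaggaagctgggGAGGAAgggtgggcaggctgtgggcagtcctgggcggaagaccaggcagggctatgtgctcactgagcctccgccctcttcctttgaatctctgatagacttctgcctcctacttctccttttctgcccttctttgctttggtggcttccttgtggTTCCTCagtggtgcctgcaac
GAGGAA occurred at 2 positions, at -127 on the plus strand and at 29 after the start on the minus strand, and 27.9% of 35116 promoters of this length held it at least once. CANNTG, the E-box bound by factors such as MYOD1, occurred at 3 positions, -221, -196 and -185, and in 68.7% of promoters, and did not overlap with GAGGAA. The NF-κB consensus (5.91% of promoters), the interferon-stimulated response element (3.57%), TATAAA (11.5%) and CCAAT (34.6%) had 0 matches on either strand. These are matches of letters in a short window and say nothing about binding.

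The mRNAs of myeloid transcription factors were measured in the same samples. Of 13 listed factors 9 were tested, edgeR with Benjamini-Hochberg adjustment called 0, 1 higher and 1 lower had an unadjusted p below 0.05, and DESeq2 called 1, KLF4, as higher. Their median log2 fold change was 0.01, or -0.01 with RLE factors, beside -0.01 for all genes with the main scaling, and it lay between -0.13 and 0.14 when each sample was left out. SPI1, which encodes PU.1, had 4 to 8 counts in untreated and 6 to 10 counts in BV6-treated samples and did not pass the filter. RUNX1 and SP1 were abundant, at 263 ± 4.23 and 132 ± 9.42 CPM in untreated cells (SD, n = 4), with log2 fold changes of 0.14 and 0.13, and that of SP1 was 0.07 without BV6 replicate 3. KLF4, a factor of monocyte maturation that other tissues also express, had 15.2 ± 2.32 CPM in untreated (SD, n = 4) and 23.7 ± 1.72 CPM in treated cells (SD, n = 3), with a log2 fold change of 0.64 and an adjusted p of 0.153 by edgeR and 0.0114 by DESeq2. CEBPD overlapped between the groups, and its log2 fold change of -0.96 was -0.44 without untreated replicate 1, which had 4.44 CPM where the other untreated samples had 1.32 to 1.83 CPM.

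Since beta-2 integrins are leukocyte genes, markers of leukocytes were checked in the RH30 samples. Of 53 markers, 31 were tested and edgeR with Benjamini-Hochberg adjustment called 0. At an unadjusted p below 0.05 there were 2 higher and 1 lower, and DESeq2 called 1 lower, LAPTM5. The median log2 fold change was 0.03, beside -0.01 for all genes, and it lay between -0.20 and 0.08 when each sample was left out. Fewer cells of a type and less RNA per cell cannot be told apart in such bulk samples.

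The 12 general leukocyte markers summed to 152, 144, 122 and 128 CPM in untreated and 102, 68.8 and 107 CPM in BV6-treated samples, lower in each BV6 sample. Most of this was LAPTM5, a lysosomal membrane protein gene, with 96.7 ± 8.23 CPM without BV6 (SD, n = 4) and 60.5 ± 9.38 CPM with it (SD, n = 3) (log2 fold change -0.68, adjusted p = 0.0784, edgeR with Benjamini-Hochberg adjustment). CORO1A and CD37 came next, with log2 fold changes of -0.53 and -0.21, and without BV6 replicate 3 these were -0.13 and -0.11, while that of CORO1A was -1.15 without BV6 replicate 4. PTPRC, which encodes the leukocyte antigen CD45, had 14 to 58 counts in untreated and 11 to 45 counts in BV6-treated samples. HCLS1 had the largest fold change of this list, at 3 to 17 and 20 to 29 counts (log2 fold change 1.22, adjusted p = 0.524 from the same test).

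The 23 myeloid markers summed to 20.7, 28.9, 18.5 and 24.5 CPM in untreated and 30.2, 20.3 and 28.3 CPM in BV6-treated samples, with overlap. CSF1R, the receptor of a macrophage growth factor, was the most abundant at a mean of 13.4 CPM over all samples, followed by CD68 and FCER1G. CD68, a lysosomal protein gene of macrophages that other cells also express, had the largest fold change of the list, at 2.57, 4.22, 2.07 and 2.98 CPM in untreated replicates 1 to 4 and 5.27, 4.6 and 4.33 CPM in BV6 replicates 2 to 4. It was higher in every BV6 sample, as ITGAM was, with a log2 fold change of 0.68 that was not called (unadjusted p = 0.0189, adjusted p = 0.459, edgeR with Benjamini-Hochberg adjustment). FCGR3A, next by fold change (0.61, and 0.19 without BV6 replicate 2), had 8 to 21 counts in untreated and 11 to 29 counts in BV6-treated samples. AIF1 and S100A8 had 0 to 2 counts in every sample, S100A9 0 to 5 and TYROBP 0 to 6. The NK, T and B cell markers without NCAM1, which RMS cells also express, summed to 15.1, 11.3, 12.8 and 13.3 CPM and to 9.67, 7.53 and 12.7 CPM, again with overlap. NKG7 was the most abundant of these 17 genes, followed by CD79B (log2 fold change 0.03, and from -0.20 to 0.24 when each sample was left out). CD3E (-0.95) and KLRK1 (0.60) had the largest fold changes on the log2 scale, at 3 to 19 and 5 to 18 counts per sample, and were -1.63 without BV6 replicate 3 and 0.32 without BV6 replicate 2. CD3D had 0 to 8 counts, and KLRF1 had 0 to 3. In the BV6 samples, where ITGAM was high, these sums did not exceed the highest untreated sample, except for the myeloid sum of BV6 replicate 2 (30.2 against 28.9 CPM). LAPTM5, CSF1R and NKG7 each made up a large part of the sum of their list. Small changes of the other markers would therefore hardly show in the sums, and nothing further is read from them.

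**Figure D5:**
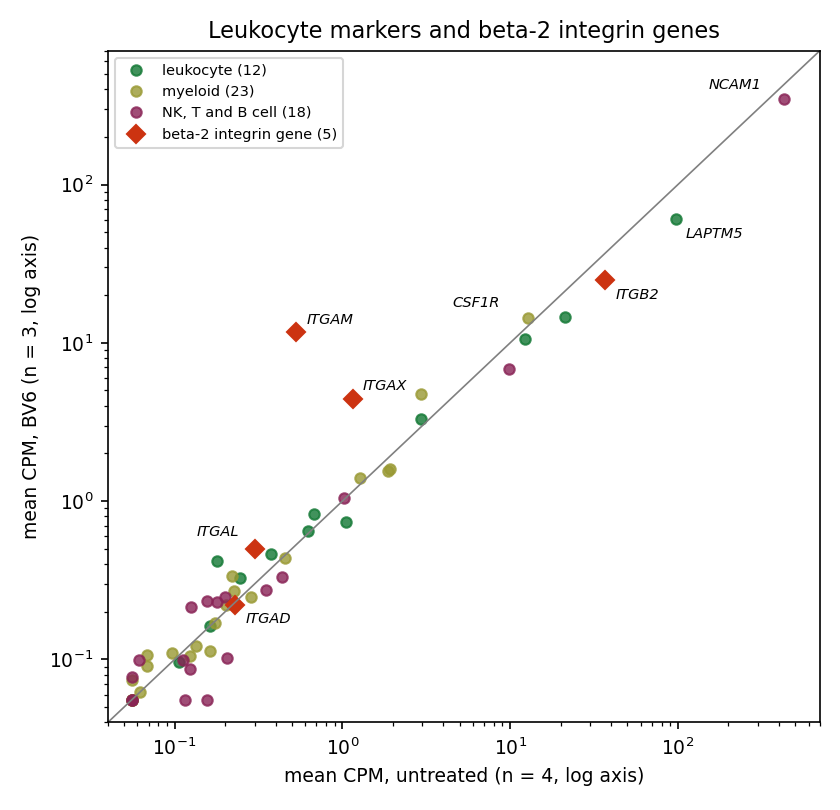
Mean CPM of 53 leukocyte, myeloid and NK, T and B cell markers and the 5 beta-2 integrin genes in untreated (x axis) and BV6-treated cells (y axis), both on log axes, with means under 3 counts in the smallest library drawn at that floor and a line of equal levels. ITGAM and ITGAX lie farther above the line than the markers.

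Most markers of the labeled cell type were present, but MYF6 (0 to 5 counts) and TFAP2B (1 to 6 counts) did not pass the filter. MYOD1 and MYOG, the master regulators of myogenesis, had 344 ± 86.9 and 150.3 ± 53.8 CPM in untreated cells (SD, n = 4), and ACTC1, DES and FGFR4 were the most abundant of the 19 RMS and muscle markers. Of 17 tested, edgeR with Benjamini-Hochberg adjustment called 0, with 0 higher and 3 lower at an unadjusted p below 0.05 and 1 lower by DESeq2. Of the 17, 3 were higher and 14 lower, where 47.7% of all tested genes were higher. Their median log2 fold change was -0.30, beside -0.01 for all tested genes. It was -0.39 without untreated replicate 2 and -0.16 without BV6 replicate 2, the ends of its range when each sample was left out. MYL4, a myosin light chain gene, had the largest (-0.78, and from -1.17 to -0.42 when each sample was left out), with overlapping groups. With the replicate number as a block, MYL4 and CHRND were called lower, as given with the block fit in the last paragraph.

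Ligands of beta-2 integrins can lie on the same or on neighboring cells. Of 20 listed ligand genes with counts, 12 were tested, and edgeR with Benjamini-Hochberg adjustment called 0, with 1 higher and 2 lower at an unadjusted p below 0.05. DESeq2 called VCAM1 higher and CTGF lower. The median log2 fold change was -0.22, beside -0.01 for all genes, and it was -0.05 without BV6 replicate 3. CYR61, a matrix protein bound by several integrins, was the most abundant at 390 ± 22.1 CPM in untreated (SD, n = 4) and 329 ± 46.6 CPM in treated cells (SD, n = 3), followed by JAM3 and THY1. ICAM1, the main ligand of LFA-1, had 4 to 16 counts in untreated and 10 to 23 counts in BV6-treated samples. VCAM1 had 2, 5, 6 and 8 counts in untreated and 11, 19 and 42 counts in BV6-treated samples, without overlap. Its log2 fold change of 2.32 (standard error 0.612) was not called by edgeR (adjusted p = 0.231) and lay just past the threshold with DESeq2 (adjusted p = 0.0484). CTGF, at 8.59 ± 0.688 and 5.28 ± 0.332 CPM, had a log2 fold change of -0.70 (adjusted p = 0.098 by edgeR and 6.82e-05 by DESeq2).

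Integrins need activation from inside the cell before they bind firmly. Of 33 genes for activation and adhesion adaptors with counts, 27 were tested. By edgeR with Benjamini-Hochberg adjustment 1, RASGRP3, was called higher, where 0.394% of all tested genes were. At an unadjusted p below 0.05 there were 1 higher and 1 lower, and DESeq2 called 1 higher and 1 lower. The list had 13 genes higher and 14 lower and a median log2 fold change of -0.02 (between -0.14 and 0.04 when each sample was left out), beside -0.01 for all genes. RASGRP3, an exchange factor that activates Ras and Rap1, had 361, 231, 295 and 253 counts in untreated replicates 1 to 4 and 567, 736 and 595 counts in BV6 replicates 2 to 4. It rose from 4.45 ± 0.406 CPM in the untreated group (SD, n = 4) to 11 ± 0.952 CPM in the BV6 group (SD, n = 3) and was higher in 3 of 3 BV6 samples. On the log2 scale this was a change of 1.31 ± 0.146 (SE; adjusted p = 0.00574 by edgeR and Benjamini-Hochberg). The call held in 7 of 7 fits that each left out a sample. RASSF5, a Rap1 effector that supports LFA-1 in lymphocytes, had 13.6 ± 1.6 CPM without and 7.73 ± 0.964 CPM with BV6 (log2 fold change -0.81, adjusted p = 0.0722 by edgeR and 6.67e-05 by DESeq2). FLNA, VCL and RAPGEF1, the most abundant genes of the list, had log2 fold changes of 0.06, 0.18 and -0.09, and when each sample was left out those of FLNA ranged from -0.26 to 0.42, those of VCL from 0.11 to 0.27 and those of RAPGEF1 from -0.21 to 0.05.

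The genes whose pattern over the 7 samples was most like that of ITGAM were found by Pearson r of log2 CPM over all tested genes, as a description without a test. As ITGAM separated the groups, genes that did so with little spread rank high. UNC13A, a gene of vesicle priming at synapses, came first with r = 0.994 (Spearman rho 0.929), and its counts of 30, 50, 38 and 29 in untreated and 846, 559 and 407 in BV6-treated samples were of the same order as those of ITGAM. TNFAIP3, which encodes the ubiquitin-editing enzyme A20, followed with r = 0.990 (rho 0.929) at a far higher level and a smaller log2 fold change of 0.86. FAM86B1, TBR1, PLA2G4C-AS1, C2CD2, BIRC3, AC116366.1, SLC25A26 and AC040977.2 completed the 10 genes, with r between 0.980 and 0.988. BIRC3, which encodes the inhibitor of apoptosis protein cIAP2, had the largest log2 fold change of them (4.86), and BV6 replicate 2 was its highest sample as it was for ITGAM. TBR1 had few counts, 6 to 8 in untreated and 17 to 18 in BV6-treated samples. ITGAX had r = 0.720 with ITGAM and ranked 1233 of 23123 genes, ITGAL had 0.678, ITGAD -0.135 and ITGB2 -0.709. Within the BV6 group, replicate 2 had the most ITGAM and the least ITGAX, and among the untreated samples replicate 2 likewise had the most ITGAM and the least ITGAX.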

How the data were processed

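The authors sequenced stranded libraries of poly(A)-selected RNA in paired-end mode with reads of 50 nt. The authors deposited raw counts per gene, made with STAR 2.6.1d on GRCh38 (submitters' processing notes) and a union of each gene's isoforms. The counting program, its strand setting and whether both mates were counted are not given in the sources used here. The summed counts exceed the reads per library stated in the methods, so a count may be a mate rather than a pair, and 3 counts may be fewer fragments. Groups and replicate numbers came from the labels. The counts were filtered by filterByExpr (minimum count 10), scaled by TMM and fitted with condition only by glmQLFit and glmQLFTest of edgeR 4.0.16 (R 4.3.3), and p-values were adjusted by Benjamini-Hochberg over 23124 genes. Called means an adjusted p below 0.05. CPM refer to the TMM-normalized library, and correlations used log2 CPM with a prior count of 2. The depth of the samples sets a floor of 3 counts, or 0.0389 to 0.0557 CPM. Gene positions, exon lengths and shared 50-base stretches came from GENCODE release 44 (37489 genes matched), and the promoter from RefSeq. The tests were tested on simulated data.

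The members and gene lists were chosen with earlier results of these data known. Named genes are the 5 members, genes of the lists that were called, the 3 with the highest mean CPM and the 2 with the largest fold change of each list, the 3 nearest genes on each side of the cluster, called genes within 500 kb, and the 10 genes most like ITGAM. Other genes of the lists may be named. PYCARD-AS1 and ITGB2-AS1 are named for their overlap. Alternatives were the DESeq2 1.42.0 Wald test, RLE factors, no filter on low counts, a replicate block, each sample left out, a prior count of 0.5 and a window of 1 Mb.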

Additional observations from a re-analysis of the deposited data

Results flagged for a closer look

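Of 76 named genes that were looked at, 10 had 1 untreated sample far from the other 3. Chance is taken to flag about 1 in 20 such groups if they are independent, a rate not measured here. The genes share the same untreated samples, so nothing is read from the number flagged. ITGB2-AS1 had 3.55 CPM in untreated replicate 2 and 1.23 to 1.46 CPM in the others. Among the genes of the lists, CEBPD had 4.44 CPM in untreated replicate 1 while the others had 1.32 to 1.83 CPM, and CTGF had 9.62 CPM in untreated replicate 2 while the others had 8.2 to 8.33 CPM. FCER1G had 2.24 CPM in untreated replicate 3 while the others had 1.79 to 1.86 CPM, and VCL had 443 CPM in untreated replicate 4 while the others had 368 to 371 CPM. Of the muscle markers, ACTC1 had 1357 CPM in untreated replicate 4 while the others had 804 to 851 CPM, and in untreated replicate 1 FGFR4 had 933 CPM while the others had 526 to 578 CPM, and MYOD1 had 474 CPM while the others had 293 to 311 CPM. PTPRC had 0.753 CPM (58 counts) in the same sample while the others had 0.226 to 0.285 CPM. AC040977.2, which is among the genes most like ITGAM, had 5.43 CPM in untreated replicate 4 while the others had 5.03 to 5.08 CPM. None of the 5 beta-2 integrin genes had such a sample.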

How the results depend on the processing

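The log2 fold change of ITGAM lay between 4.23 and 4.62 when each sample was left out, and the DESeq2 Wald test, RLE factors, no filter and the replicate block gave 4.46, 4.45, 4.45 and 4.41. For ITGAX the range over left-out samples was 1.34 to 2.24, for ITGAL 0.29 to 1.01, for ITGB2 -0.90 to -0.35, and for ITGAD -0.83 to 0.27 over the 5 fits that kept it, since it did not pass the filter without untreated replicate 3 or 4. The number of genes called in the whole table was 104 (91 higher, 13 lower), 105 with RLE factors, 447 with DESeq2 (266 higher, 181 lower), 242 with no filter (169 higher, 73 lower) and 38 to 89 with a sample left out. DESeq2 called 3 other integrin subunits, 1 gene within 500 kb of ITGAM, 2 ligand genes, 2 activation genes, 1 leukocyte marker and 1 myeloid factor. Without the filter there were 1 (ZNF668), 2 (RASGRP3 and RASSF5) and 1 (LAPTM5) among neighbors, activation genes and markers. The cause of these differences was not tested. In all fits that left out a sample, the counts of these lists were as in the full fit, 1 for the activation genes and 0 for the others. A window of 1 Mb also gave 0, and a prior count of 0.5 kept 9 of the 10 genes most like ITGAM. Of 58 named genes outside the family that were tested and not called, 39 were unstable when a sample was left out. Their log2 fold change moved by over 1.5 times or changed sign (11 genes) in such a fit. This held for 0 of the 7 named genes that were called. The call itself selects genes with a change well beyond its spread, so nothing is read from this contrast.

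With the replicate number as a block, 218 genes were called (150 higher, 68 lower), with 2 activation genes (RASSF5 added), 1 leukocyte marker (LAPTM5) and 2 muscle markers, both lower (CHRND, adjusted p = 0.0368, and MYL4, adjusted p = 0.0379). The median log2 fold change of the genes around ITGAM was -0.07 with the block, beside -0.02 for all genes. CHRND was named after its values were seen. Of the 5 beta-2 integrin genes, 2 were higher by this call with the block, where 0.649% of all tested genes were, and nothing is read from that count. The numbers stand for a code that samples share in their titles, and the labels do not say what it marks. Same-numbered samples correlated in their deviations from the group means by 0.462, 0.438 and 0.0847 for replicates 2, 3 and 4 (mean 0.328, against -0.11 for different numbers). As the last of these was under 0.1, the numbers were not taken to pair the samples, and not every sample correlated best with its own number. ITGAD, ITGAL and SPI1 had counts under 50 in every sample. Depth may limit them, as may the spread between samples, and neither was tested.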
